A study of Mus musculus with 9 samples.

Results

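Cell surface markers used to tell pluripotent states apart were followed here through 10 genes, *Pecam1*, *Alpl*, *Kit*, *Cd24a*, *Cd44*, *Cd9*, *Podxl*, *Icam1*, *Fut9* and *Prom1*. They were taken by gene symbol, and all 10 had an entry among the 54232 gene IDs of the count table. RNA-seq was carried out on 9 libraries of C57 x CBA cells and feeder cells. Naïve mESCs were grown in S/L medium, which holds serum and the cytokine LIF, and primed mEpiSCs were converted from them in F/A medium, which holds Fgf2 and activin A. Both states grew on feeders, mouse embryonic fibroblasts (MEFs) that mitomycin C keeps from dividing, and the mESC line carries GFP driven by the distal *Oct4* promoter. Each state had 2 libraries at passage 5 (P5) and 2 at passage 15 (P15), and 1 library came from MEFs alone. The title of the MEF library does not say whether its cells were treated with mitomycin C or were the feeders of these cultures. The feeder shares below take it to stand for the feeders. All naïve and primed libraries came from a single cell line. Nothing in the labels says that the 2 libraries of a group were separate cultures, so that p-values concern these libraries only. The edgeR test used below also draws on the spread of the other genes tested. Its SEs, intervals and p-values therefore do not measure the spread of a single gene's own libraries alone.

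Naïve cells stand for the epiblast of the blastocyst and depend on LIF, and primed cells stand for the epiblast after implantation, a polarised epithelium that depends on FGF and activin. The proteins and glycans at their surface differ, which is why antibodies against PECAM1, KIT, CD24, SSEA1 and others, and the staining for alkaline phosphatase, serve to sort the states. A surface protein level is set by more than its mRNA, and the values below are of poly(A) RNA only.

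The 8 pluripotent libraries had 14378051 to 20985136 counts, and that of MEFs had 25646547. Levels are in CPM, counts scaled to the depth of each library with TMM factors,, and 3 counts, taken as the floor for a gene without counts, correspond to 0.128 to 0.221 CPM. All 5 naïve state genes looked at (*Zfp42*, *Esrrb*, *Tfcp2l1*, *Nr0b1*, *Klf2*) were lower in primed cells at each passage by the test described below. All 5 primed state genes (*Fgf5*, *Otx2*, *Pou3f1*, *T*, *Cer1*) were higher. Of all genes tested, 31.1% were lower and 31.2% higher at P5, and 28.4% and 28.2% at P15. Both lists were chosen with earlier results of these data known, so that their counts do not test the labels. The summed level of 24 fibroblast markers was 9698 to 9717 CPM in naïve cells at P5, 16149 to 16828 CPM in naïve cells at P15, 6007 to 6140 CPM in primed cells at P5, 15110 to 15716 CPM in primed cells at P15 and 79397 CPM in MEFs, and none of the 24 was at 0. The median of the 24 ratios to the MEF library put the feeder share between 12.6% and 25.4%. At P15 the summed level was 20.3% to 21.2% of that of MEFs in naïve and 19.0% to 19.8% in primed cells. There the median gave 18.1% to 18.8% and 25.2% to 25.4%. At P5 both measures were higher in naïve cells. Values with the feeder share taken off use the median only. Single ratios in the naïve and primed libraries ran from 2.61% to 354%, so that the markers disagreed on the share, and the median may be too large or too small. The collagen *Col1a1* was lower in the primed state, with 2104 and 4329 CPM in naïve and 764 and 2653 CPM in primed cells beside 26126 CPM in MEFs. The proteoglycan genes *Dcn* and *Lum* were higher, *Dcn* with 40.0 and 19.4 CPM in naïve, 461 and 734 CPM in primed cells and 211 CPM in MEFs, and *Lum* with 11.96 and 9.57 CPM, 87.8 and 311 CPM and 148 CPM. In such bulk libraries fewer cells of a type and less RNA per cell cannot be told apart.

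Primed cells had more *Podxl*, *Cd24a* and *Prom1* RNA than naïve cells, and less *Pecam1*, *Alpl*, *Fut9*, *Kit* and *Cd44*, at both passages. *Cd9* and *Icam1* did not pass the test at P5 and were lower in primed cells at P15. By edgeR's quasi-likelihood test at an adjusted p under 0.01, 3 of the 10 genes were higher and 5 lower in the primed state at P5, beside 31.2% and 31.1% of all 16482 genes tested. At P15, 3 were higher and 7 lower, beside 28.2% and 28.4% of all 15733 genes tested. With a fold change of at least 2 added, 3 were higher and 3 lower at P5, beside 13.5% and 8.85% of all genes, and 3 were higher and 4 lower at P15, beside 12.2% and 11% of all genes. The median size of the log2 fold change, without its sign, was 2.02 for the 10 genes at P5 and 2.27 at P15, and 0.51 and 0.48 for all genes tested. Because the 10 are state markers chosen with earlier results of these data known, this contrast with all genes is descriptive only. Scaling by library size alone moved the median log2 fold change of all genes at P5 from 0.01 to 0.21, and the share of higher genes among those called from 50.1% to 65.8%.

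**Figure D1:**
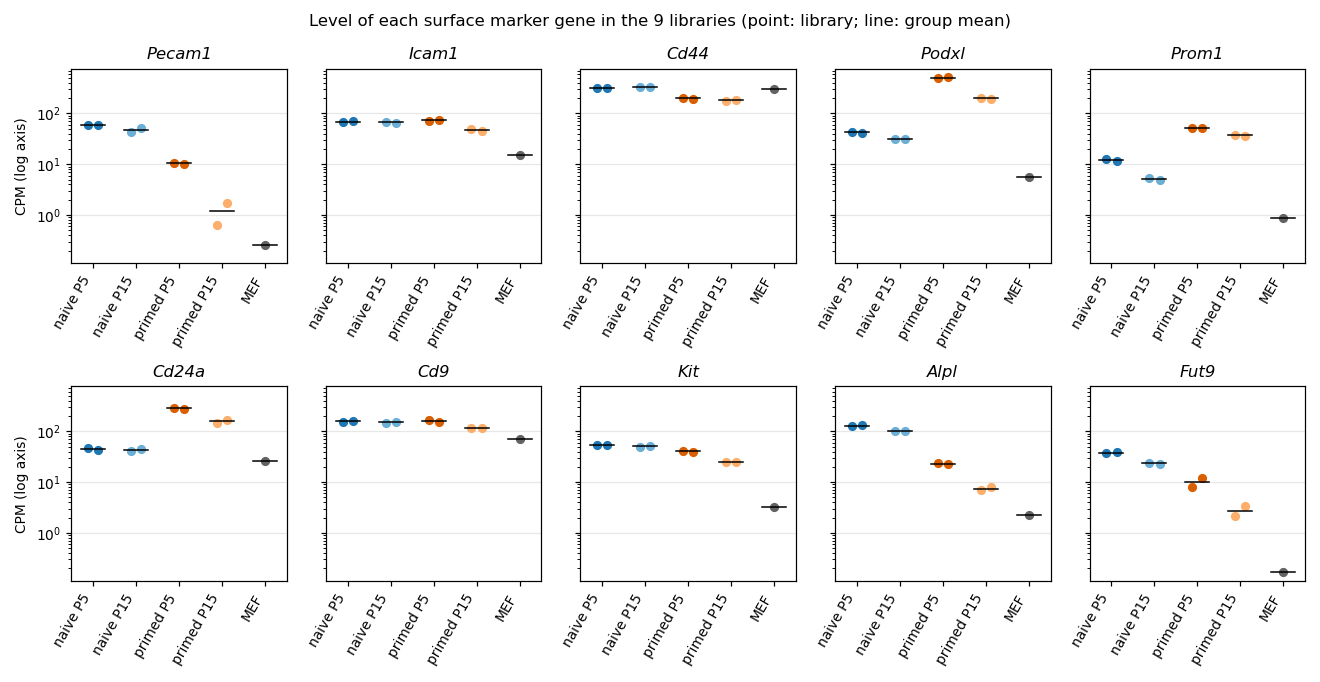
Level of each of the 10 genes in CPM on a log axis, with a point for each library and a line for the group mean (2 libraries for each state and passage, 1 for MEFs). *Podxl*, *Prom1* and *Cd24a* stood higher in all primed libraries than in all naïve ones, *Pecam1*, *Alpl* and *Fut9* lower, and the MEF level of *Cd44*, 299 CPM, lay within the range of the pluripotent cells.

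*Pecam1* encodes an adhesion molecule of the immunoglobulin superfamily, best known from endothelial junctions and platelets, that also marks the inner cell mass. It lies on chr11:106654217-106750628 of GRCm38, on the minus strand. Naïve libraries held 59.4 and 59.0 CPM at P5 and 43.8 and 51.2 CPM at P15, primed libraries 10.5 and 10.3 CPM at P5 and 0.631 and 1.76 CPM at P15, and MEFs 0.255 CPM. All primed libraries lay below all naïve ones, and those of P15 held only 11 and 31 counts. Of the 50-base stretches of *Pecam1* transcripts, 1.54% also occur in transcripts of 475 other genes. The weight of such reads in these low counts was not tested. The log2 fold change of primed over naïve cells was −2.48 ± 0.08 (SE) at P5 (adjusted p = 1.40e-21), a 5.56-fold difference. At P15 it was −5.31 ± 0.18 (adjusted p = 1.86e-24), and it was −6.20 without primed replicate 2 and −4.73 without primed replicate 1. Both of these lay outside the interval of the full fit, −5.68 to −4.94, so that its SE understates the difference between the primed libraries. The 10 endothelial markers summed to 107.7 to 109 CPM in naïve cells at P5, 88.0 to 91.3 CPM in naïve cells at P15, 147 to 154 CPM in primed cells at P5, 148 to 149 CPM in primed cells at P15 and 195 CPM in MEFs. Of the 9 tested at P5, 2 were higher and 1 lower in the primed state, and of the 8 tested at P15, 2 were higher and 3 lower. *Flt1*, a VEGF receptor, made up most of the sum, with 66.0 and 56.7 CPM in naïve and 118 and 125 CPM in primed cells, and was higher by 0.87 and 1.13 on the log2 scale. Without it, a choice made after its values were seen, the group means of the other 9 summed to 42.4 and 33.0 CPM in naïve and 32.4 and 24.01 CPM in primed cells. *Tek*, the angiopoietin receptor, was lower at −1.73 and −2.41, with 10.6 and 4.53 CPM in naïve and 3.12 and 0.857 CPM in primed cells. *Cdh5*, the cadherin of endothelial junctions, had 0.248 and 0 CPM in naïve and 1.71 and 2.69 CPM in primed cells and passed upward at both passages. The part of endothelial cells in the *Pecam1* level was not tested.

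*Icam1*, an adhesion molecule of the same superfamily that binds leukocyte integrins, was close to level between the states at P5. Naïve libraries held 69.1 and 69.7 CPM at P5 and 67.5 and 66.1 CPM at P15, primed libraries 71.8 and 74.7 CPM at P5 and 50.5 and 46.0 CPM at P15, and MEFs 15.01 CPM. The primed libraries of P15 were the lowest of the 8 pluripotent ones. At P5 the log2 fold change was 0.11, with a 95% interval from 0.00 to 0.21 (adjusted p = 0.0584), and at P15 it was −0.48 ± 0.08 (adjusted p = 1.13e-06). Scaling by library size alone gave 0.31 at P5, past the threshold. An antisense gene, *Gm47079*, shares 511 bases of exon with *Icam1*, 13.1% of the 50-base stretches of *Icam1* transcripts also occur in transcripts of 881 other genes, *Gm47079* holding most of them, and how strand was treated in counting is not given in the sources used here.

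*Cd44* encodes the main receptor for hyaluronan, a matrix sugar, and was the most abundant of the 10 in MEFs on either scale. Naïve libraries held 316 and 315 CPM at P5 and 325 CPM in each library at P15, primed libraries 201 and 196 CPM at P5 and 176 and 186 CPM at P15, and MEFs 299 CPM. The naïve libraries thus stood slightly above the MEF level and the primed libraries well below it. Log2 fold changes were −0.64 ± 0.04 at P5 (adjusted p = 1.16e-15) and, later, −0.86 ± 0.06 at P15 (adjusted p = 1.66e-15). At the median feeder share, MEF RNA would give 13.6% to 42.7% of the *Cd44* level of a library, the largest range of the 10 genes. At the lowest marker ratio of each library it would give 3.91% to 11.4%. With the median share taken off, the log2 fold change was −0.74 at P5 and −1.23 at P15, both past the threshold.

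*Podxl* encodes podocalyxin, a heavily sialylated mucin of apical membranes that carries glycan epitopes used as stem cell markers. It showed the largest difference of the 10 at P5. Naïve libraries held 43.5 and 42.0 CPM at P5 and 31.1 and 31.8 CPM at P15, primed libraries 505 and 513 CPM at P5 and 199.7 and 197 CPM at P15, and MEFs 5.61 CPM. Every primed library lay above every naïve one, and the MEF level was below all 8. Primed over naïve gave a log2 fold change of 3.61 ± 0.04 for P5 (adjusted p = 1.73e-32), a 12.2-fold difference, and 2.64 ± 0.07 at P15 (adjusted p = 7.34e-28), a 6.25-fold difference.

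*Prom1* encodes prominin, a pentaspan protein of membrane protrusions known as CD133 on many stem cells. Naïve libraries held 12.4 and 11.4 CPM at P5 and 5.45 and 4.86 CPM at P15, primed libraries 51.3 and 50.6 CPM at P5 and 38.3 and 36.5 CPM at P15, and MEFs 0.893 CPM. The naïve libraries of P15 were the lowest of the 8. Primed cells exceeded naïve cells by 2.13 ± 0.08 on the log2 scale at P5 (adjusted p = 9.37e-20) and by 2.85 ± 0.13 in the P15 comparison (adjusted p = 1.07e-20), or 4.38-fold and 7.22-fold. *Prom1* shares 424 bases of exon with the antisense gene *Gm16401*, and 5.1% of its 50-base stretches occur in other genes.

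*Cd24a* encodes a small GPI-anchored mucin that is used to sort primed from naïve cells. Naïve libraries held 47.4 and 42.2 CPM at P5 and 40.2 and 43.9 CPM at P15, primed libraries 288 and 276 CPM at P5 and 148 and 168 CPM at P15, and MEFs 26.4 CPM. The primed libraries lay above the naïve ones at both passages, and the naïve ones stood nearer to the MEF level than to the primed one. On the log2 scale the difference was 2.69 ± 0.05 at P5 (adjusted p = 7.32e-28) and narrowed to 1.89 ± 0.07 at P15 (adjusted p = 1.11e-22). Of the 50-base stretches of its transcripts, 2.75% also occurred in the gene *Gm6212*, so that a small part of its reads could be split between them.

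*Cd9* encodes a tetraspanin, a membrane organiser that pairs with integrins. Naïve libraries held 155 and 162 CPM at P5 and 148 and 155 CPM at P15, primed libraries 166 and 156 CPM at P5 and 118 and 116 CPM at P15, and MEFs 70.9 CPM. The 4 libraries of P5 overlapped and those of primed cells at P15 lay below the other 6 pluripotent libraries and above MEFs. At P5 the log2 fold change was 0.05, with a 95% interval from −0.03 to 0.14 (adjusted p = 0.271), and at P15 it was −0.39 ± 0.06 (adjusted p = 1.58e-06). Scaling by library size alone gave 0.26 at P5, past the threshold. *Cd9* shares 218 exon bases with *Gm26728* on the opposite strand, and 14.4% of its 50-base stretches occur in transcripts of 173 other genes, so that its count is the least certain of the 10 in this respect.

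*Kit* encodes the receptor tyrosine kinase for stem cell factor. Naïve libraries held 54.2 and 54.6 CPM at P5 and 49.6 and 52.3 CPM at P15, primed libraries 41.9 and 39.9 CPM at P5 and 25.4 and 24.8 CPM at P15, and MEFs 3.23 CPM. The groups did not overlap at either passage. The log2 fold change was −0.38 ± 0.06 at P5 (adjusted p = 3.18e-06), and with library size alone it was −0.17 and missed the threshold (adjusted p = 0.0142). At P15 it was −1.04 ± 0.09 (adjusted p = 7.73e-13), or 2.05-fold.

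*Alpl* encodes the tissue-nonspecific alkaline phosphatase, a GPI-anchored enzyme whose staining is a classic sign of undifferentiated cells. Naïve libraries held 125 and 132 CPM at P5 and 102 and 101 CPM at P15, primed libraries 23.3 and 22.9 CPM at P5 and 6.94 and 7.95 CPM at P15, and MEFs 2.30 CPM. The levels fell into 4 separate ranges, one for each state and passage, all above MEFs. Log2 fold changes were −2.45 ± 0.06 at P5 (adjusted p = 5.79e-25) and, later, −3.78 ± 0.10 at P15 (adjusted p = 1.08e-28), or 5.45-fold and 13.7-fold. The paralogs *Alpi*, *Alppl2* and *Akp3* had means of 0.0737 CPM or less in every group, under the floor, so that *Alpl* was the alkaline phosphatase gene with measurable RNA.

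*Fut9* encodes a fucosyltransferase that makes the Lewis x glycan, the epitope known as SSEA1. Naïve libraries held 37.8 and 38.6 CPM at P5 and 24.2 and 22.4 CPM at P15, primed libraries 8.05 and 12.1 CPM at P5 and 2.12 and 3.35 CPM at P15, and MEFs 0.170 CPM. Both primed groups lay below both naïve ones, and the 2 libraries of a primed group differed from each other by a larger ratio than those of a naïve group. Primed over naïve, *Fut9* stood at −1.90 ± 0.11 on the log2 scale at P5 (adjusted p = 2.02e-15) and at −3.09 ± 0.17 at P15 (adjusted p = 4.73e-18). At P5 it was −2.19 without primed replicate 2 and −1.60 without primed replicate 1, both outside the interval from −2.13 to −1.68. At P15 these values were −3.43 and −2.78, inside the interval from −3.44 to −2.74.

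**Figure D2:**
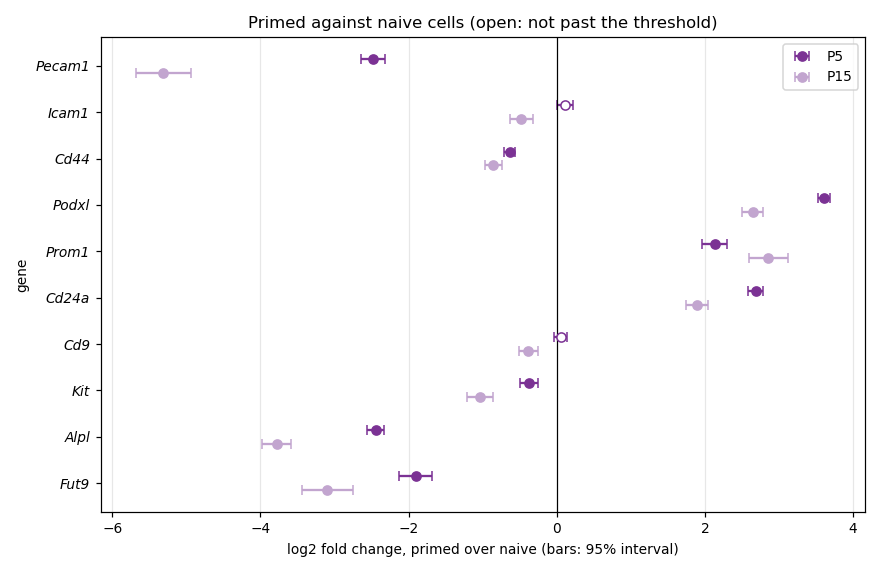
Log2 fold change of primed over naïve cells for the 10 genes at P5 and P15 from edgeR, with bars for the 95% interval and open points for values that missed an adjusted p of 0.01. *Podxl* stood at 3.61 and 2.64 and *Pecam1* at −2.48 and −5.31, and *Cd9* and *Icam1* lay near 0 at P5.

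Start sites of these genes are shown for *Alpl*, an enzyme gene far lower in primed cells that has 2 starts, and for *Icam1*, which missed the threshold at P5. RefSeq windows on GRCm38.p6 were at hand for 6 of the 10 genes, namely *Alpl*, *Kit*, *Cd44*, *Cd9*, *Icam1* and *Prom1*. Each window held 250 bases before the start and 50 from it on, of which the first 30 are printed. Capitals mark matches, on either strand, to GGGCGG (the GC box), TATAAA (the TATA box) or TTCNNNGAA (the letters that STAT factors bind, N being any base), and CAGACA (a SMAD box) was also searched and had no match in any window of the 6 genes.
*Alpl* first start, minus strand, chr4:137796355-137796634: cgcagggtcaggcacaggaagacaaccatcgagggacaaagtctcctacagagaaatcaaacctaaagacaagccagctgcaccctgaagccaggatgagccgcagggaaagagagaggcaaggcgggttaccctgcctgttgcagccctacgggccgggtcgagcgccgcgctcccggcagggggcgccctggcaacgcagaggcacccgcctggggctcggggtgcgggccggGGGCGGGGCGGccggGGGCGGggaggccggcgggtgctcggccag
*Alpl* second start, minus strand, chr4:137766446-137766725: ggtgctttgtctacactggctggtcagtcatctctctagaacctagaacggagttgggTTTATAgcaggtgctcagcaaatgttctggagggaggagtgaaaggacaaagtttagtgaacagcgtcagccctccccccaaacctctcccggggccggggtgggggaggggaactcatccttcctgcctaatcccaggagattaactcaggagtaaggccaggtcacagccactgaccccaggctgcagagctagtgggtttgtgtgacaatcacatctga
*Icam1*, plus strand, chr9:21015690-21015969: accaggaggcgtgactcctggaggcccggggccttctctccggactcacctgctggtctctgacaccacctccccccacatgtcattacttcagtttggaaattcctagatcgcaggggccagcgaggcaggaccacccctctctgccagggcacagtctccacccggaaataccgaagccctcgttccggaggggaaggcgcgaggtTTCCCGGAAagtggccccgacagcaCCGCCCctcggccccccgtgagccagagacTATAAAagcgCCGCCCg
The first *Alpl* start had 3 GC boxes, of which a pair overlapped, a GC content of 70%, and no TATA match. The second had a TATA match, no GC box and a GC content of 54.3%. That TATA match lay far before the start, on the strand opposite to the gene. The *Icam1* window had 2 GC boxes, a TATA match and the only STAT match among the 6 genes. Its TATA match and last GC box lay just after the start. All these are matches of letters, and whether any of them works as a promoter element was not tested. Over all 32817 windows, 35.6% held the GC box, 13.6% the TATA box, 8.29% the STAT letters and 21% the SMAD box. The counts are summed over both starts of *Alpl*, so the fall of *Alpl* is not assigned to either of them.

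Passage was compared within each state, between libraries that also served in the comparisons above. Within naïve cells, 5 of the 10 genes were lower at P15 than at P5 and none higher, beside 5.01% and 4.21% of all 15683 genes tested. *Prom1* changed by −1.21 ± 0.15 on the log2 scale (adjusted p = 0.000134) and *Fut9* by −0.72 ± 0.08 (adjusted p = 5.85e-05). *Podxl* changed by −0.44 ± 0.07 (adjusted p = 0.00106), *Alpl* by −0.34 ± 0.05 (adjusted p = 0.000553) and *Pecam1* by −0.31 ± 0.07 (adjusted p = 0.00967). The call for *Pecam1* was the least firm, since it was lost without naïve P5 replicate 1 (−0.31, adjusted p = 0.0107) and without naïve P15 replicate 1 (−0.21, adjusted p = 0.0545). With the feeder share taken off, *Alpl* (−0.26, adjusted p = 0.0143), *Podxl* (−0.38, adjusted p = 0.0128) and *Pecam1* (−0.23, adjusted p = 0.0895) kept their direction and missed the threshold, and *Fut9* and *Prom1* passed it. In this comparison 15 of 24 fibroblast markers were higher and 1 lower. *Kit*, *Cd24a*, *Cd44*, *Cd9* and *Icam1* had log2 changes between −0.09 and 0.04, and the widest of their 95% intervals, that of *Cd24a*, ran from −0.26 to 0.08.

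Within primed cells all 10 genes were lower at P15 than at P5, beside 22.8% of all 15957 genes tested that were lower and 24.3% that were higher. Library size alone moved the median log2 fold change of all genes here from 0.00 to −0.13 and the share of higher genes among those called from 51.5% to 34.2%, and all 10 genes passed in the same direction. *Pecam1* fell most, by 3.14 ± 0.24 on the log2 scale (adjusted p = 1.77e-11), or 8.83-fold, and the fall was 4.05 without primed P15 replicate 2 and 2.59 without primed P15 replicate 1. As log2 fold changes, both of these lay outside the interval of the full fit, −3.64 to −2.64. *Fut9* fell by 1.90 ± 0.22, *Alpl* by 1.66 ± 0.12 and *Podxl* by 1.39 ± 0.05. Smaller falls were those of *Cd24a* by 0.87, *Kit* by 0.74, *Icam1* by 0.63, *Cd9* by 0.49 and *Prom1* by 0.48, all with an adjusted p of 2.52e-06 or less. *Cd44* fell least, by 0.17 ± 0.05 (adjusted p = 0.0071), and this call was lost without either primed P5 replicate (adjusted p = 0.0638 without replicate 1 and 0.0231 without replicate 2) and without primed P15 replicate 1 (adjusted p = 0.0238). Fibroblast markers moved with this comparison, with 21 of 24 higher at P15 and none lower, and a median ratio to MEFs of 12.6% to 12.9% at P5 and 25.2% to 25.4% at P15. After subtraction of that share, 9 of the 10 genes passed the threshold, with *Cd44* at −0.41, and *Prom1* at −0.25 did not (adjusted p = 0.0196). How far feeder RNA shaped these values beyond that was not tested.

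**Figure D3:**
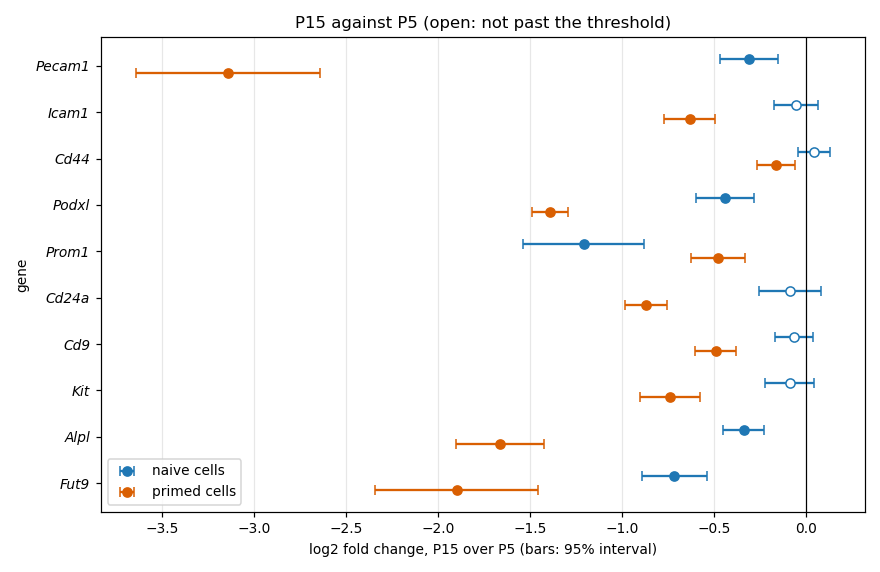
Log2 fold change of P15 over P5 for the 10 genes within naïve cells and within primed cells from edgeR, with bars for the 95% interval and open points for values that missed an adjusted p of 0.01. All 10 primed values lay below 0, from −0.17 for *Cd44* to −3.14 for *Pecam1*, and *Prom1* was the gene whose naïve value, −1.21, lay below its primed value, −0.48.

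The state difference itself differed between P15 and P5 for 9 of the 10 genes in edgeR's interaction contrast over 8 libraries, 8 of them downward and 1 upward, beside 10.8% and 13.3% of all 16926 genes tested. *Pecam1* had the largest difference, −2.82 ± 0.24 (adjusted p = 7.19e-11), followed by *Alpl* at −1.32 ± 0.12 and *Fut9* at −1.17 ± 0.23. For these 3 the gap between the states was thus wider at P15. *Podxl* at −0.95 ± 0.08 and *Cd24a* at −0.78 ± 0.09 had narrower gaps at P15, and *Prom1* at 0.74 ± 0.16 (adjusted p = 0.000417) a wider one. *Kit* at −0.64, *Icam1* at −0.57 and *Cd9* at −0.42 also passed. *Cd44*, at −0.20 ± 0.06, did not (adjusted p = 0.0137), and passed after subtraction of the feeder share (−0.47, adjusted p = 0.000446), with library size alone (−0.32, adjusted p = 0.000236) and without primed P15 replicate 2 (−0.23, adjusted p = 0.00693). The *Fut9* value missed the threshold without primed P15 replicate 1 (−0.88, adjusted p = 0.0133), after subtraction of the feeder share (−1.06, adjusted p = 0.0125) and by DESeq2's Wald test (−1.19, adjusted p = 0.0141). In the same contrast 16 of 24 fibroblast markers passed upward and none downward, and with the feeder share taken off 9 of the 10 genes passed, *Cd44* in place of *Fut9*. Library size alone moved the median over all genes from 0.00 to −0.11 and the share of upward calls from 55.0% to 35.2%.

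Between genes, levels were compared per kilobase of exon. *Cd9* was highest in naïve cells, at 77.6 ± 2.37 CPM per kb at P5 and 74.1 ± 2.33 at P15 (SD, n = 2), followed by *Cd44* and *Alpl*. In primed cells at P5 *Cd24a* was highest at 109 ± 3.20 CPM per kb, followed by *Podxl* at 92.8 ± 0.95 and *Cd9* at 78.6 ± 3.56. At P15 *Cd24a* at 61.1 ± 5.40 and *Cd9* at 57.2 ± 0.74 differed by less than the SD of *Cd24a*, and *Podxl* came next at 36.1 ± 0.38. The lowest places went to *Fut9* and *Prom1* in naïve cells and to *Fut9* and *Pecam1* in primed cells, and in MEFs *Cd44* at 44.2 CPM per kb led *Cd9* at 34.7. Of the 36 pairs of neighbours in the order of the 4 groups, 4 differed by less than the larger of their SDs. These were *Cd24a* with *Icam1* and *Podxl* with *Kit* in naïve cells at P15, and *Cd24a* with *Cd9* and *Fut9* with *Pecam1* in primed cells at P15.

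**Figure D4:**
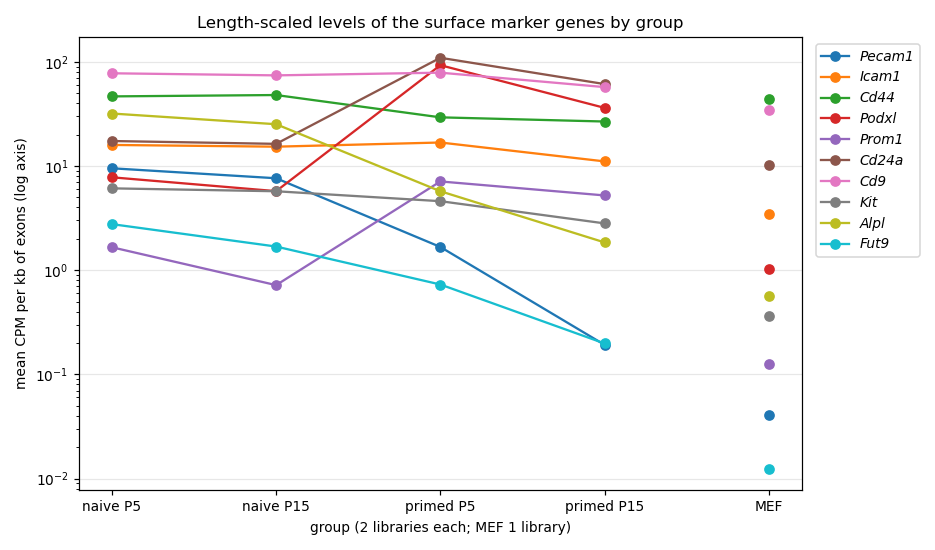
Mean CPM per kb of exons on a log axis for the 10 genes by state and passage (2 libraries each, joined by lines) and in MEFs (1 library). *Podxl* rose from 7.79 CPM per kb in naïve to 92.8 in primed cells at P5, and *Pecam1* went from 9.51 to 1.67 and to 0.192 in primed cells at P15.

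Genes that act with the 10 were looked at in lists. The counts of called genes in these and the other gene lists are to be read beside the shares over all genes tested. Those shares were 31.2% higher and 31.1% lower at P5, and 28.2% higher and 28.4% lower at P15. Whether the count of a list differed from them was not tested. The Lewis x and SSEA glycan list had 25 genes tested, of which 15 were higher and 4 lower in the primed state at P5, and 15 higher and 3 lower at P15. *B4galt1* and *B3gnt5*, which build the lactosamine chains that fucosyltransferases decorate, were higher by 0.92 and 1.27 on the log2 scale at P5 and by 0.89 and 0.50 at P15. *B3gnt7*, which extends keratan-type chains, was lower by −1.35 and −1.26. *Fut4*, the other fucosyltransferase linked to Lewis x, was opposite in direction to *Fut9*, at 2.11 (adjusted p = 4.96e-09) and 1.79 (adjusted p = 8.12e-07). Its level was low, 1.54 ± 0.57 and 1.57 ± 0.49 CPM in naïve and 6.52 ± 0.58 and 5.40 ± 0.40 CPM in primed cells (SD, n = 2).

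Of 14 alkaline phosphatase and GPI anchor genes tested, 4 were higher and 3 lower at P5, and 5 higher and 2 lower at P15. *Piga*, which begins GPI anchor synthesis, was lower in primed cells, at −0.99 and −0.77. *Ank*, a transporter linked to pyrophosphate, was higher by 1.19 at P5 and went from 33.1 CPM in naïve to 133.7 CPM in primed cells at P15, and *Enpp1*, which makes pyrophosphate, was higher at P15 (1.43) and not called at P5 (0.33, adjusted p = 0.0149). Of 13 genes of Kit signalling, 9 were higher and 2 lower at P5, and 8 higher and 2 lower at P15, while *Kit* itself was lower. The adaptor *Gab2* stood at 1.68 and 0.50, the lipid kinase *Pik3ca* at 0.65 and 0.40 and the phosphatase *Ptpn11* at 0.44 and 0.41. *Kitl*, the ligand, was 14.9 CPM in MEFs and 14.2 to 26.4 CPM in the group means of the pluripotent cells, and primed over naïve gave 0.31 on the log2 scale at P5 (adjusted p = 0.00223) and 0.06 later, at P15 (adjusted p = 0.699).

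Of the 6 cytoplasmic partners of Podxl, Cd44 and Icam1, 4 were higher and 2 lower at P5, and 1 was higher and 1 lower at P15. *Slc9a3r1*, the scaffold that binds podocalyxin, was higher at 0.95 and 1.24, and *Nf2*, which encodes merlin, lower at −0.72 and −0.63. Of 11 hyaluronan genes, Cd44 ligands and splicing factors, 4 were higher and 5 lower at P5, and 2 higher and 5 lower at P15. *Spp1*, which encodes osteopontin, a Cd44 ligand, was 1028 ± 27.4 and 907 ± 6.81 CPM in naïve and 3066 ± 29.2 and 4471 ± 112 CPM in primed cells (SD, n = 2), and its log2 fold change was 1.61 at P5 and 2.29 at P15. *Hmmr*, a hyaluronan receptor of dividing cells, was lower at −0.63 and −0.96, and *Cemip*, which takes part in hyaluronan breakdown and stood at 153 CPM in MEFs, was lower at −1.07 and −1.48. *Esrp1*, an epithelial splicing factor that acts on Cd44, was higher at P5 (0.35) and lower at P15 (−0.47), and *Esrp2* was lower at both (−0.40 and −1.40).

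Of 17 genes of the tetraspanin web, 13 were higher and 1 lower in the primed state at P5, and 13 higher and 2 lower at P15, while *Cd9* was not called at P5 and lower at P15. *Cd82* was higher at 2.27 and 2.53, *Tspan6* at 1.90 and 1.43 and the integrin *Itga3* at 1.45 and 0.55. Of the Icam and leukocyte ligand genes, 7 were tested at P5 and 6 at P15, and 1 was higher and 3 lower at each passage. *Itgal*, a subunit of the leukocyte integrin that binds Icam1, went from 4.07 ± 0.65 and 3.13 ± 1.09 CPM in naïve to 0.285 ± 0.089 and 0.142 ± 0.120 CPM in primed cells, the last under the floor. *Siglecg*, a sialic acid-binding lectin, was lower at −3.45 and −2.97, and *Vcam1* was not called at P5 (−0.02, adjusted p = 0.712) and was higher at P15 (0.28). Of 6 prominin and microvillus genes, 4 were higher and 0 lower at P5, and 3 higher and 2 lower at P15. *Cd34*, a sialomucin related to podocalyxin, was higher at 4.16 and 4.19, with 9.43 and 6.21 CPM in naïve and 165 and 114 CPM in primed cells, and *Ttyh1*, which is found at membrane protrusions, was higher at 1.70 and 1.66. *Prom2*, the paralog of *Prom1*, was 1.64 CPM or less in all groups, and its mean in primed cells at P15, 0.0852 CPM, was under the floor.

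*Cd34*, *Kit* and *Prom1* also mark blood progenitors, and the 10 blood markers, of which *Cd34* is a member, summed to 62.2 to 63.9 CPM in naïve cells at P5, 57.7 to 57.8 CPM in naïve cells at P15, 178 to 180 CPM in primed cells at P5, 117 to 125 CPM in primed cells at P15 and 64.6 CPM in MEFs. *Ptprc*, which defines leukocytes, had means of 0.343 CPM or less in the pluripotent cells. *Cd34* made up most of the sum in primed cells, and without it, a choice made after its values were seen, the group means of the other 9 summed to 53.6 and 51.5 CPM in naïve and 13.9 and 6.68 CPM in primed cells. Of 5 blood markers tested at P5, 2 were higher and 2 lower, and of 4 tested at P15, 1 was higher and 2 lower. *Laptm5*, a lysosomal membrane protein of blood cells, was lower, with 45.5 and 43.7 CPM in naïve and 6.998 and 2.63 CPM in primed cells. *Gata1*, an erythroid transcription factor, was higher at P5 (3.05), with 0.397 CPM in naïve and 3.26 CPM in primed cells, and was not tested at P15. *Kit* and *Alpl* also mark primordial germ cells, and of 5 germ cell markers 4 were lower in primed cells at P5 and 3 at P15, and none higher. Their sum was 65.4 to 70.0 CPM in naïve cells at P5, 55.3 to 56.5 CPM in naïve cells at P15, 27.6 to 30.3 CPM in primed cells at P5, 20.1 to 20.3 CPM in primed cells at P15 and 6.42 CPM in MEFs. *Ddx4*, a germ cell helicase, stood at 26.4 and 22.4 CPM in naïve and at 2.20 and 0.143 CPM in primed cells, and *Dazl*, a germ cell RNA-binding protein, at 5.76 and 8.33 CPM and at 1.21 and 0.0284 CPM, with both P15 values of primed cells under the floor. The part of such cells in the levels of *Kit*, *Alpl* and *Prom1* was not tested.

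Other surface markers of pluripotent and embryonic cells gave a wider frame, although some of them are also in the tetraspanin, fibroblast or endothelial lists and are counted again here. Of 47 genes, 29 were higher and 11 lower in the primed state at P5, and 22 higher and 17 lower at P15, with median log2 fold changes of 0.27 and 0.20. *Bst2* was higher at 1.24 and 3.41 and *Ly6e* at 1.30 and 2.39, both membrane proteins induced by interferon. *Tdgf1*, the Nodal co-receptor Cripto, was lower at −2.21 and −0.43, with 1103 and 900.3 CPM in naïve, 233 and 675 CPM in primed cells and 0 counts in MEFs.

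**Figure D5:**
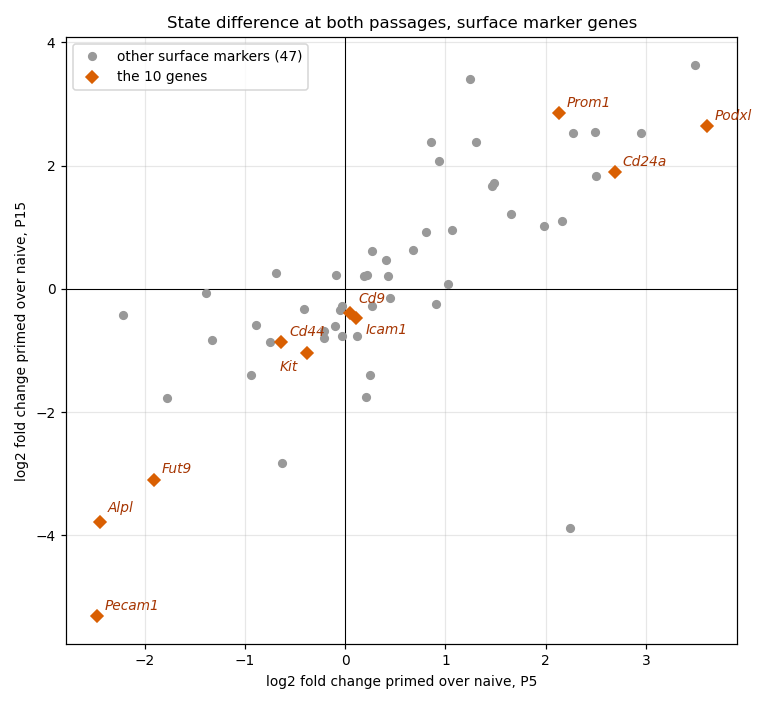
Log2 fold change of primed over naïve cells at P5 (horizontal axis) and at P15 (vertical axis), with diamonds for the 10 genes and grey points for 47 other surface markers. *Pecam1* lay lowest on both axes and *Podxl* farthest right at 3.61.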

How the data were processed

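Poly(A) RNA of 8 naïve and primed libraries and 1 MEF library was sequenced. The deposited table gives unnormalized read counts for each Ensembl gene; the authors trimmed reads with Cutadapt, used HISAT2 with mm10 for alignment, and obtained the counts with featureCounts. The release of that annotation and the treatment of strand and multiply aligned reads are not given in the sources used here. Spike-in entries (92, with 0 counts) were dropped, and 54079 of 54232 IDs had a name in GENCODE M21. Groups came from the sample titles. The 10 genes and all gene lists were chosen with earlier results of these data known.

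Computations used R 4.3.3, edgeR 4.0.16, limma 3.58.1 and DESeq2 1.42.0. Levels are CPM after TMM over 9 libraries, with the SD of 2 libraries, and per-kilobase values use the union of exons. The floor of 3 counts covers counting error only. Comparisons used edgeR's quasi-likelihood test, two-sided, on genes with at least 10 counts in at least 2 libraries of the fit, with Benjamini-Hochberg adjustment over all genes tested and a threshold of 0.01. SEs are the log2 fold change over the square root of F. SEs, the intervals in the text and figures, and p-values rest on a variance shared in part across genes. It had 12.7 to 35.7 degrees of freedom in the fits of 4 libraries. All 10 genes passed the filter in every comparison. Named genes are the 10 and, of each list, the 3 (of lists under 8 genes, the 2) with the smallest adjusted p at P5 or P15, besides partners and paralogs on those lists and, as a defining marker named after its values were seen, Ptprc. The code was tested on simulated data. Alternatives tried were scaling by library size alone or by DESeq2's size factors, no filter on low counts, all 8 libraries in 1 fit, a replicate block, DESeq2's Wald test, subtraction of the MEF counts at the feeder share and each replicate left out, where the lone library is assumed to vary like the other groups. Replicate pairs differed by more than counting noise, with a chi-square per gene of 2.10 to 3.28.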

Additional observations from a re-analysis of the deposited data

Results flagged for a closer look

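The difference between primed and naïve cells differed between the passages for 9 of the 10 genes by the test of that difference in edgeR (P15 minus P5, log2). The values were −2.82 for *Pecam1*, −1.32 for *Alpl*, −1.17 for *Fut9*, −0.95 for *Podxl*, −0.78 for *Cd24a*, −0.64 for *Kit*, −0.57 for *Icam1*, −0.42 for *Cd9* and 0.74 for *Prom1*. Over all genes tested, 10.8% passed downward and 13.3% upward. The *Fut9* call was lost under 3 of 14 alternatives, and 16 of 24 fibroblast markers passed upward in the same contrast. No group had enough libraries for a check of single outlying libraries.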

How the results depend on the processing

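Over 590 values of the 10 genes under alternatives, 565 kept their side of the threshold, 20 lost the call, 5 gained it and 0 reversed a called direction. The 565 include uncalled values near 0 that changed sign. *Cd9* at P5 went from 0.05 to −0.006 without naïve P5 replicate 1. *Icam1* in naïve passage went from −0.05 to 0.01 with the feeder share taken off. Of the naïve cells' passage comparison, 5 calls among the 10 genes became 3 without a low-count filter and 2 with the feeder share taken off, and 1446 calls among all genes became 551, 940 and, with the replicate block, 2783. The cause was not tested. The replicate numbers are no pairing by the labels, and the correlations of deviations between same-numbered libraries were −0.09 between states at P5, −0.12 at P15, 0.12 within naïve and 0.11 within primed cells, so that the block is given here only: it changed none of the 50 calls of the 10 genes. A block with crossed pairs at P15, chosen after seeing the data, gave 10 calls among the 10 genes and 9477 among all genes, against 10 and 8899. Calls lost were those of *Kit* at P5 (library size alone), of *Pecam1* in naïve passage (7 of 11 alternatives, −0.43 to −0.21), of *Cd44* in primed passage (5 of 11, −0.41 to −0.13), of *Alpl*, *Podxl* and *Prom1* with the feeder share off, of *Podxl* in naïve passage without a filter (its range was −0.47 to −0.38) and of *Fut9* for the difference between passages (3 of 14, −1.53 to −0.88). Group means moved by a factor of 0.978 to 1.02 with DESeq2's size factors and 0.917 to 1.13 with library size alone. Depth limits *Pecam1* in primed cells at P15, with 11 and 31 counts, and *Fut9*, with 37 and 59.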
